A study of Mus musculus with 9 samples.

Results

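The genes described here encode the respiratory chain from complex II to complex V, with cytochrome c, and were followed by RNA-seq in mouse embryonic stem (ES) cells. Members were all gene names that begin with Sdha to Sdhd, Uqcr, Cox4 to Cox8 or Atp5, together with Cyc1 and Cycs. That gave 53 genes of the 24044 named genes used from the table, each on 1 row. They divide into 8 genes for complex II, 9 for complex III, 1 for cytochrome c, 18 for complex IV and 17 for complex V. By role, 38 are subunits, 7 are tissue isoforms of complex IV subunits, 4 are complex II assembly factors, 1 is the carrier cytochrome c, 1 is a supercomplex factor and 2 are accessory genes. Expression is given as FPKM, fragments per kilobase of transcript scaled to the library's mapped fragments, so levels are per transcript length.

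Each of 9 libraries came from 1 of 3 ES cell lines, E14, v6.5 or Oct4 GiP, at passages 20 to 23, in 1 of 3 culture states. Paused cells received 200 nM INK128, an inhibitor of the kinase mTor, for 2 weeks. Cells labelled 2i, a name used for medium with inhibitors of the kinases MEK and GSK3 (the labels give no composition), and cells labelled Serum were the other states, and all cells grew on gelatin without a stated feeder layer. Each state has 3 libraries, 1 per line. The 3 libraries of a state are thus different lines and not repeat cultures of 1 line. The limma tests between states remove the mean level of each line. Their p-values weigh a state difference against how unevenly it repeats over lines and libraries. Tests between lines remove the mean level of each state in the same way. Values are listed below in the order E14, v6.5 and Oct4 GiP.

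Complex II (succinate dehydrogenase) passes electrons from succinate to ubiquinone, complex III passes them from ubiquinol to cytochrome c, and complex IV (cytochrome c oxidase) passes them to oxygen. Complexes III and IV pump protons, and complex V (ATP synthase) lets protons return through a ring of c subunits to make ATP. The mitochondrial genome encodes the catalytic core of complex IV, so the nuclear complex IV genes given here are the accessory subunits, several of which have paralogs used in heart and muscle, lung or testis. Naive ES cells are known to draw on both glycolysis and respiration. The mitochondrially encoded subunits were not analysed here.

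The c subunit shows why a paralog matters. Atp5g1, Atp5g2 and Atp5g3 are known to encode the same mature c subunit behind different import sequences, so the ring cannot be told apart by protein, and only the transcripts differ. The last 228 coding bases of each, stop codon included, follow from the GENCODE vM21 transcripts of GRCm38 (mm10), with capitals at each base where the 3 do not all match. Atp5g1 lies at chr11:96068852-96075670 on the minus strand, Atp5g2 at chr15:102662864-102672352 on the minus strand and Atp5g3 at chr2:73908447-73911326 on the minus strand.
Atp5g1: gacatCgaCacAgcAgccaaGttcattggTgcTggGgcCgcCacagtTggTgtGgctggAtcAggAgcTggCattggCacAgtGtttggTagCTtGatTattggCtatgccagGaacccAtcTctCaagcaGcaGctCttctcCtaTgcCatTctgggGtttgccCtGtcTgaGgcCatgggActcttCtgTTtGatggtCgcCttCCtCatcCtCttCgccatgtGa
Atp5g2: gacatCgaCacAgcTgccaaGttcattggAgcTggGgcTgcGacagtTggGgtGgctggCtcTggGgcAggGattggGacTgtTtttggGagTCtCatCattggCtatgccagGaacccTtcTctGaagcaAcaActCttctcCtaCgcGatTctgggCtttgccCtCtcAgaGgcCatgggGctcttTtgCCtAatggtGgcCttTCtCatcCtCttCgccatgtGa
Atp5g3: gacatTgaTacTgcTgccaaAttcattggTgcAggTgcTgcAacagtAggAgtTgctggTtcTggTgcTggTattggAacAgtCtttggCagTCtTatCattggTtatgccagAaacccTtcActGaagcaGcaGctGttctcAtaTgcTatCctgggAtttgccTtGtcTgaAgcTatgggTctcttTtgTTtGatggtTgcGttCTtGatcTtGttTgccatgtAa
Of the 228 bases, 170 were the same in all 3 genes. Atp5g1 and Atp5g2 shared 194 bases (85.1%), Atp5g1 and Atp5g3 182 bases (79.8%) and Atp5g2 and Atp5g3 179 bases (78.5%). Of the 34, 46 and 49 differences in these pairs, 32, 41 and 44 lay at the third base of a codon. Reads from these stretches can therefore be assigned to 1 gene only where they cover a difference.

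A second set of sequences is shown because 2 tissue isoforms of complex IV, Cox7a1 and Cox6b2, carry the largest changes of all members. Their promoter windows, 250 bases before to 50 after the start in RefSeq (GRCm38.p6), stand beside those of the broadly expressed paralogs Cox7a2 and Cox6b1, with CG dinucleotides in capitals. The windows are chr7:30183921-30184220 (plus strand) for Cox7a1, chr9:79759804-79760103 (minus) for Cox7a2, chr7:4753045-4753344 (minus) for Cox6b2 and chr7:30626065-30626364 (minus) for Cox6b1.
Cox7a1: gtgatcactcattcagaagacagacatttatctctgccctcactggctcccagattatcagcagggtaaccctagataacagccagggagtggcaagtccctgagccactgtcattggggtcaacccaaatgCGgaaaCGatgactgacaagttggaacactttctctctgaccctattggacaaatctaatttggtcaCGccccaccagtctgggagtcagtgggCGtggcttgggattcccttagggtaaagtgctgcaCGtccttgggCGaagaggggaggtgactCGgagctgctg
Cox7a2: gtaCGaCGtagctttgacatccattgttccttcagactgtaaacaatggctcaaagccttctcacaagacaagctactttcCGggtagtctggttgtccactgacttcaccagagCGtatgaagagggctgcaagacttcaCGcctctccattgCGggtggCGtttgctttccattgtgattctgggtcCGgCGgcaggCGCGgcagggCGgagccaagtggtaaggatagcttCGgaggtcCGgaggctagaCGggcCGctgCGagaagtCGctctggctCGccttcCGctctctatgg
Cox6b2: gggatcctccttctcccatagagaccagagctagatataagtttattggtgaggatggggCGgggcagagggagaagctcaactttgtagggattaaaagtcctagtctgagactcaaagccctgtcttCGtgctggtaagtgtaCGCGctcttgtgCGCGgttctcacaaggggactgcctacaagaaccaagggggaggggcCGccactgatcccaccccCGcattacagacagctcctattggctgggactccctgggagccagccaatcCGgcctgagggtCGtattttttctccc
Cox6b1: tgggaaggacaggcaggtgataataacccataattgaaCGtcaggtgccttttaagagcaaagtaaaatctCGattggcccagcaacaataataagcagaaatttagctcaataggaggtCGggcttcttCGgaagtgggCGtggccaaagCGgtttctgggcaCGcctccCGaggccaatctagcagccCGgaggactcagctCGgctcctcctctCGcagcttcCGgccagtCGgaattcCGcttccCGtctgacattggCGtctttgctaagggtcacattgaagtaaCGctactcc
The 2 tissue isoforms held 7 and 10 CG dinucleotides, and their broad paralogs 20 and 17. Promoter windows were found for 42 of the 53 members. Over the 4 windows of tissue isoforms the count ran from 2 to 10, with a median of 8.5, and over the 42 windows of other members from 5 to 44, with a median of 20. Over all 32851 windows of the table the median was 7. These counts describe the sequence and say nothing of methylation in these cells.

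Among 6 short motifs searched on both strands, none of which contains another, GCGCATGCG (from the NRF1 site) stood in 7 of the 46 member windows (15.22%) and in 1.75% of all windows. The 7 genes were Atp5g2, Atp5k, Atp5l, Cox6a1, Cycs, Uqcr11 and Uqcrc1. The ETS letters CCGGAAGT stood in 8.70% of member windows and 3.89% of all windows, TCAAGGTCA (an estrogen-related receptor site) in 4.35% and 0.42%, and AAGATGGCG (from the YY1 site) in 8.70% and 1.40%. The NRF1 and YY1 strings were shortened after longer forms had been searched and their matches seen. The longer forms stood in fewer windows, of members and of all genes alike. CACGTG (an E-box) stood in 13.04% of member windows and 7.15% of all windows, and TATAAA in 8.70% and 13.62%. None of the 6 occurred in the windows of Cox7a1 or Cox6b2. The NRF1, ETS, YY1 and E-box strings each contain CG, and most member windows hold more CG dinucleotides than the median window. The rates were not adjusted for this. A match is a string of letters and not a shown binding site.

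Most members were strongly expressed in every library. The 38 subunits had a median of 197 FPKM in Paused, 325 in 2i and 291 in Serum, from the lowest, Sdhc, to the highest, the catalytic beta subunit Atp5b. Atp5b had 1149, 1234 and 1219 FPKM in Paused, 1377, 1269.5 and 1182 in 2i, and 1325, 1253 and 1317 in Serum. Sdhc, a membrane anchor of complex II, had 46.8, 46.7 and 53.6 FPKM in Paused, 31.3, 61.9 and 65.4 in 2i and 57.9, 58.6 and 65.1 in Serum. The 4 complex II assembly factors Sdhaf1 to Sdhaf4 ran from 7.24 to 18.4 FPKM as state means, far below the subunits they serve.

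Summed over members, complex II reached 352 ± 23.8 FPKM in Paused, 425 ± 12.7 in 2i and 414 ± 15.5 in Serum (SD, n = 3 each, as throughout). Complex III summed to 1314 ± 37.5, 2239 ± 90.3 and 1906 ± 76.7 FPKM in the same order. Complex IV summed to 3083 ± 224 FPKM in Paused, 4737 ± 285 in 2i and 3990.4 ± 183 in Serum, and complex V to 4533 ± 157, 6209 ± 701 and 5970.2 ± 3.51. In each of the 4 sums the Paused libraries were lower than all libraries of the other states.

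Tests were run over all 12711 genes with at least 1 FPKM in 3 or more libraries, with limma on log2(FPKM + 1), cell line as a block, and Benjamini-Hochberg adjustment at 0.05. Fold changes are on that log2 scale with their standard errors. Of the 53 members 49 were tested. The 4 that were not, Cox4i2, Cox6a2, Cox8b and Cox8c, are tissue isoforms at or near 0, and Cox7b2 was tested only because it reached 1 FPKM in 3 libraries. Bulk libraries of this kind cannot tell fewer cells of a type from less RNA per cell. Over the 3 states, 33 of the 49 members differed by the F test, against 54.8% of all tested genes.

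Most respiratory genes were lower in Paused than in Serum cells. Of the 49 tested members 27 fell and 0 rose, against 10.5% of all tested genes that fell and 7.64% that rose (limma, adjusted p). By an unadjusted p under 0.05, 34 members were lower and 1 was higher, against 19.5% and 16.7% of all tested genes. Of complex III 6 of 9 tested genes fell, of complex IV 9 of 14, of complex V 10 of 17 and of complex II 1 of 8, and Cycs fell. The median log2 fold change over members was -0.38, against -0.01 over all tested genes. By line the member median was -0.37 (E14), -0.39 (v6.5) and -0.32 (Oct4 GiP). The Paused and Serum libraries did not overlap for 37 members that were lower and for 2 that were higher, against 21.3% and 17.3% of all genes. In all 3 lines alike, 42 members were lower and 4 higher, against 32.4% and 29.6% of all genes.

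Some markers of other cell types also fell in Paused against Serum, and others did not. None of 2 tested primitive endoderm, 8 germ cell and 1 brown fat markers was called in either direction, and 2 of 4 muscle markers fell. The primitive endoderm list summed to 2.03 to 4.65 FPKM in Paused, 3.04 to 4.92 in 2i and 3.10 to 3.97 in Serum. Of 6 trophoblast markers 5 were tested and 4 fell, the keratin genes Krt8, Krt18 and Krt7 and the transcription factor gene Tfap2c. Krt8 had 9.58, 7.16 and 3.45 FPKM in Paused and 161, 24.4 and 62.6 FPKM in Serum (-3.14 ± 0.63). The trophoblast list summed to 26.3 to 48.6 FPKM in Paused, 43.0 to 71.9 in 2i and 63.5 to 315 in Serum, and its defining gene Cdx2 was at most 0.629 FPKM in Paused and 2.51 FPKM in Serum. Of 7 fibroblast markers 2 were tested, and both fell, the collagen gene Col1a1 (-1.76 ± 0.41) and the surface antigen gene Thy1 (-0.77 ± 0.15). That list summed to 0.638 to 1.83 FPKM in Paused, 0.921 to 1.42 in 2i and 4.26 to 11.3 in Serum. Krt8, Krt18, Krt7, Col1a1 and Thy1 were lower in 2i than in Serum as well, and Tfap2c was lower in Paused than in 2i. Whether such cells were present, and any part of theirs in the member changes, was not tested.

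**Figure D1:**
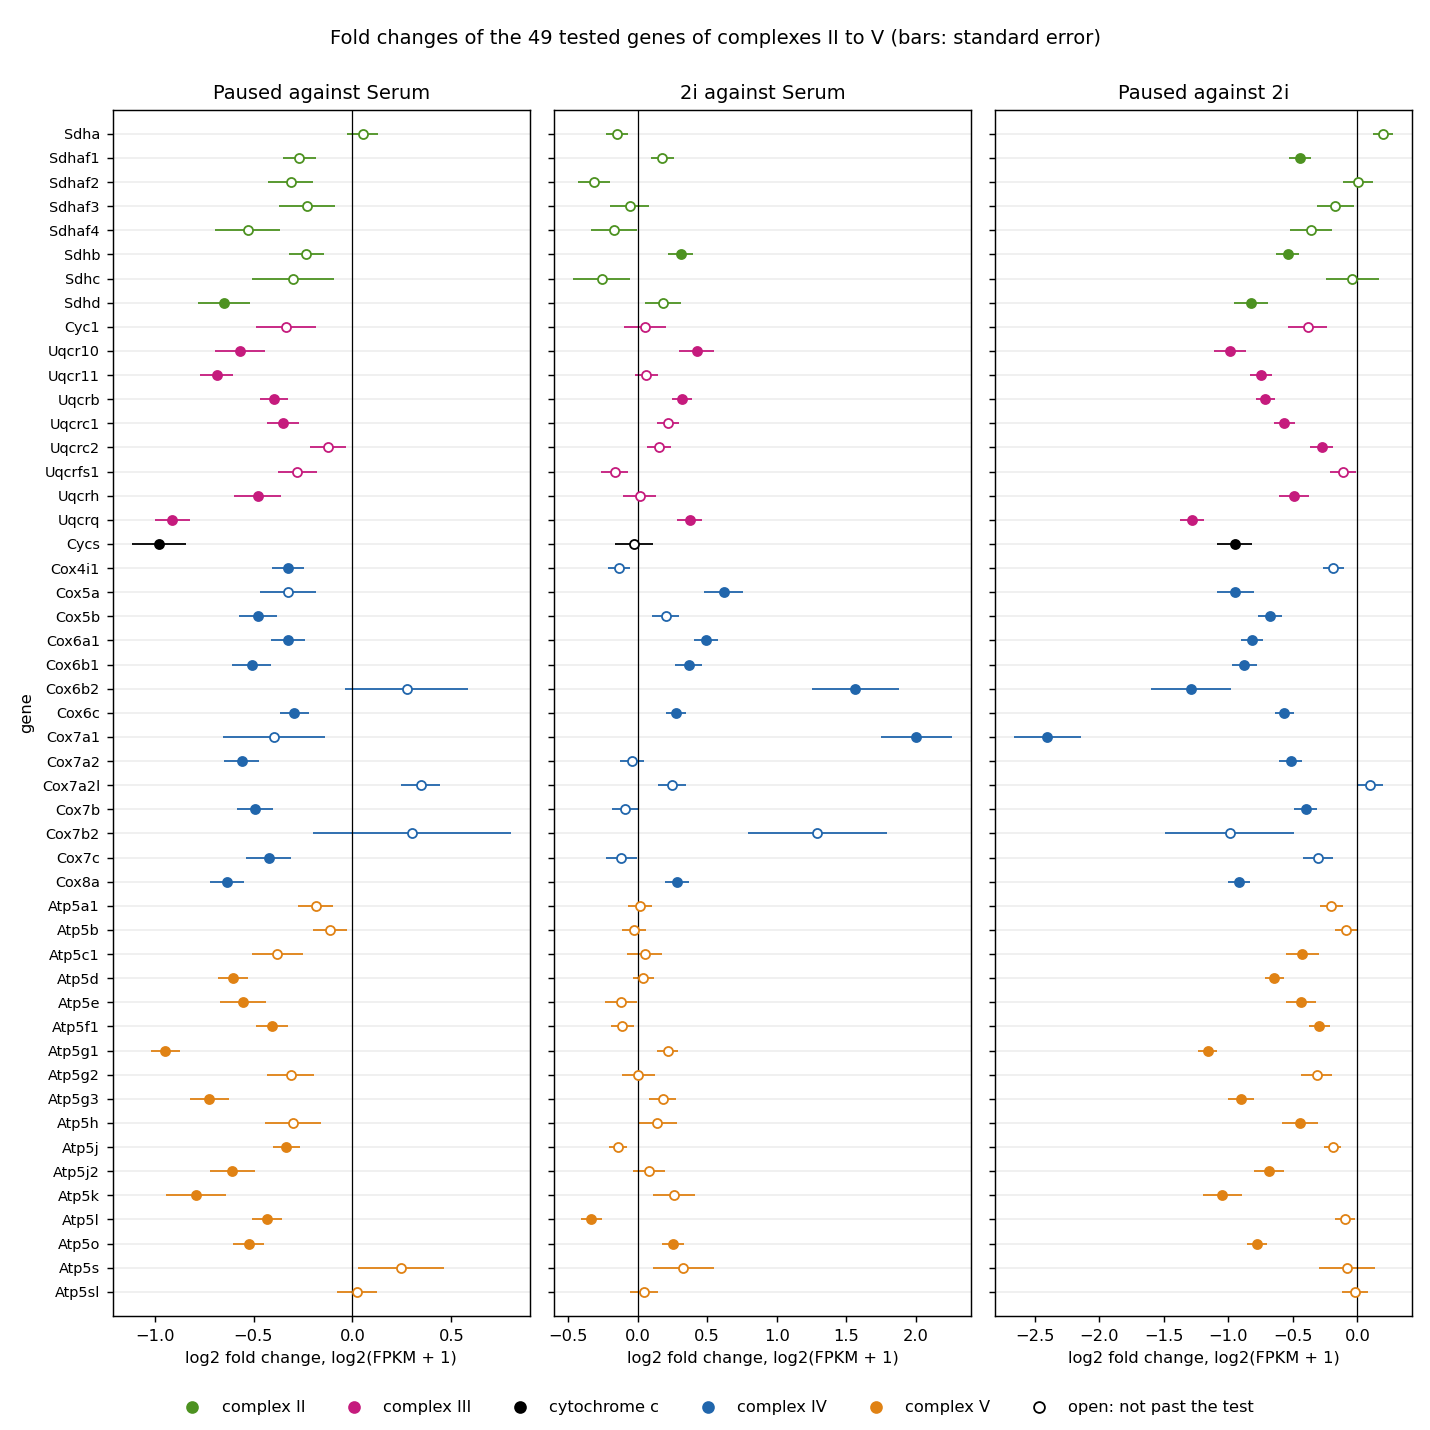
Log2 fold change of FPKM + 1 (x axis, with standard error) for each of the 49 tested members (rows, ordered by complex), in Paused against Serum, 2i against Serum and Paused against 2i, with filled points past the adjusted p threshold of 0.05 and open points not. In Paused against Serum 27 points are filled and all lie left of 0, in 2i against Serum 13 are filled and 12 lie right of 0, and in Paused against 2i 31 are filled and all lie left of 0.

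The largest fall was that of Cycs, the cytochrome c of most tissues, which carries electrons between complexes III and IV. Cycs had 26.9, 32.4 and 31.1 FPKM in Paused and 58.5, 62.3 and 59.9 FPKM in Serum. All 3 Paused libraries lay below all Serum libraries, and the log2 fold change was -0.98 ± 0.14 (adjusted p = 0.0137). Cyct, the testis cytochrome c, is not a member. It had 14.9, 33.9 and 5.70 FPKM in Paused and 6.55, 12.6 and 5.91 FPKM in Serum. Its level was higher in Paused in E14 and v6.5 only, and was not called. In Paused v6.5 it was above that of Cycs. Cycs, Uqcrh, Atp5c1, Atp5k and Atp5l have a pseudogene of the same name in GENCODE, and the assignment of reads shared with such copies is not stated, so their levels are uncertain to that extent.

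Atp5g1, 1 of the 3 c-subunit genes, had 161, 142 and 144 FPKM in Paused and 313, 255 and 298 FPKM in Serum, with no overlap (-0.95 ± 0.07, adjusted p = 0.0062). Atp5g3 had 243, 250.2 and 251 FPKM in Paused and 422, 422 and 387 FPKM in Serum (-0.72 ± 0.10, adjusted p = 0.0135), again with no overlap. Atp5g2 had 428, 367 and 429 FPKM in Paused and 509.9, 511 and 496 FPKM in Serum. These did not overlap either, but the gene did not pass the test (-0.31 ± 0.12, adjusted p = 0.112). All 3 transcripts for 1 protein were thus lower in Paused. The 2 that were called were the lower ones in Serum, and the most abundant had the smallest change and was not called.

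Uqcrq, a small subunit of complex III, had 210.2, 171 and 197 FPKM in Paused and 362, 317 and 412 FPKM in Serum (-0.91 ± 0.09, adjusted p = 0.00963). Uqcr11, another small subunit, had 193, 152 and 181 FPKM in Paused and 303, 265 and 278 FPKM in Serum (-0.69 ± 0.08). Atp5k, a membrane subunit (e) of complex V involved in dimers of the enzyme, had 307, 248 and 374 FPKM in Paused and 496, 546 and 545 FPKM in Serum (-0.79 ± 0.15). None of these groups overlapped. Of the other complex III genes Uqcr10 fell by 0.57 on the log2 scale, the hinge protein gene Uqcrh by 0.48, Uqcrb by 0.40 and the core protein gene Uqcrc1 by 0.35.

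Several genes for catalytic or large subunits did not pass the test. Of the catalytic F1 subunits, Atp5b had -0.11 ± 0.08 and Atp5a1 -0.19 ± 0.09 (adjusted p = 0.378 and 0.181). Nor did the flavoprotein Sdha (0.05 ± 0.08), the iron-sulfur protein Sdhb (-0.23 ± 0.09), the Rieske protein Uqcrfs1 (-0.28 ± 0.10), the core protein Uqcrc2 (-0.12 ± 0.09) or Cyc1, the haem protein that reduces cytochrome c (-0.34 ± 0.15). For Atp5b, Atp5a1, Uqcrfs1, Uqcrc2 and Cyc1 all Paused libraries still lay below all Serum libraries, while those of Sdha and Sdhb overlapped. Among the complex II assembly factors, Sdhaf1 to Sdhaf4 had -0.27, -0.31, -0.23 and -0.53 in that order and Sdhc had -0.30, and none passed. Sdhd, a membrane anchor of complex II, was the 1 complex II gene that fell, with 48.4, 56.2 and 55.3 FPKM in Paused and 73.8, 95.3 and 83.9 FPKM in Serum (-0.65 ± 0.13). In complex V the central stalk genes Atp5d (delta) and Atp5e (epsilon) fell by 0.60 and 0.55 on the log2 scale, while the third, Atp5c1 (gamma), had -0.38 and was not called. Of the peripheral stalk genes, Atp5o fell by 0.53, Atp5f1 (subunit b) by 0.41 and Atp5j (F6) by 0.33, and Atp5h (d) had -0.30 and was not called. The membrane genes Atp5j2 (f) and Atp5l (g) fell by 0.61 and 0.43. The accessory genes Atp5s and Atp5sl had 0.25 ± 0.22 and 0.03 ± 0.10 and were not called.

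**Figure D2:**
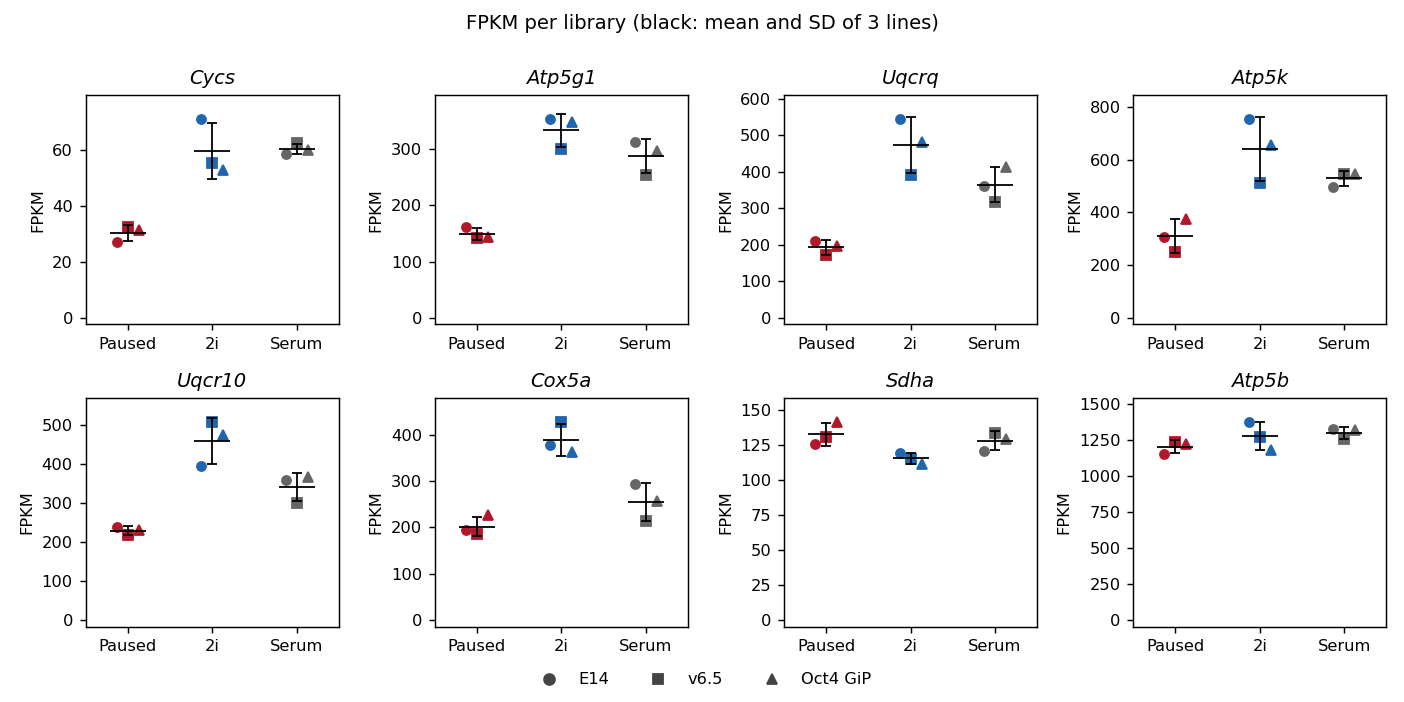
FPKM (y axis) of 8 members in each library by state (x axis, Paused, 2i, Serum), with the line as the symbol and the mean and SD of 3 lines in black. For Cycs, Atp5g1, Uqcrq and Atp5k all Paused points lie below all others, whereas for Sdha and Atp5b the states lie close together.

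Among the broad complex IV subunits, Cox8a fell by 0.63 on the log2 scale, Cox7a2 by 0.56, Cox6b1 by 0.51, Cox7b by 0.49, Cox5b by 0.48, Cox7c by 0.42, Cox6a1 by 0.33, Cox4i1 by 0.32 and Cox6c by 0.29. Cox5a had -0.33 ± 0.14 and was not called. Cox7a2l, a factor that joins complexes III and IV into supercomplexes, went the other way without passing the test, with 132, 99.1 and 111 FPKM in Paused and 94.6, 91.7 and 80.8 FPKM in Serum (0.35 ± 0.10, adjusted p = 0.0583). Its Paused libraries all lay above its Serum libraries. On the authors' own rescaled columns the sign for Cox7a2l turned to -0.58.

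The count of members that fell differed by which library was left out. Leaving out 1 Paused library left 1, 1 or 0 of the 49 called (E14, v6.5 and Oct4 GiP in turn), while 38, 38 and 16 genes were called in the whole table. With 1 Serum library left out 12, 10 or 0 members were called, and 729, 787 and 12 genes in all. Without the 2i library of E14, which enters only the shared spread and line terms, 34 members fell and 1 rose, with 3223 genes called in all. With 1 Paused library left out, 28, 32 and 34 members passed an unadjusted p under 0.05 in limma, in either direction. The share of all genes at that p was not counted for these fits, so these counts have no background beside them. No named member that was called stayed called under each such omission, and none turned its sign.

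Short transcripts moved with the result. Length was the median over the protein-coding GENCODE transcripts of a gene, whichever of them these cells use. It put Uqcrc1 at 533 bases and Atp5g1, whose coding sequence has 411, at 2675.5. Length classes and the regression below are therefore approximate. The members' median transcript length was 683 bases, against 2031 over all tested genes, and 37 of the 49 were no longer than 1142 bases, as were 3101 of 12382 genes. In Paused against Serum the Spearman correlation of length and log2 fold change was 0.34 over the 49 members and 0.22 over the 12382 genes with a length; genes share their libraries, so no p is given. The 37 short members had a median of -0.41 and the 12 longer members -0.25, against -0.13 for those 3101 genes and 0.11 for an equal share of the longest genes. After regression of each library on length and GC content, 15 members fell and 1, Cox7a2l, rose, against 7.37% and 7.03% of the 12382 genes in that fit. The members' median was then -0.29, against 0.01 over all genes. Cycs, Atp5g1, Uqcrq, Atp5k, Atp5g3 and Uqcr11 stayed called, and Cox6a1, Uqcr10, Cox4i1 and Cox6b1 did not. What part length plays was not tested further.

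**Figure D3:**
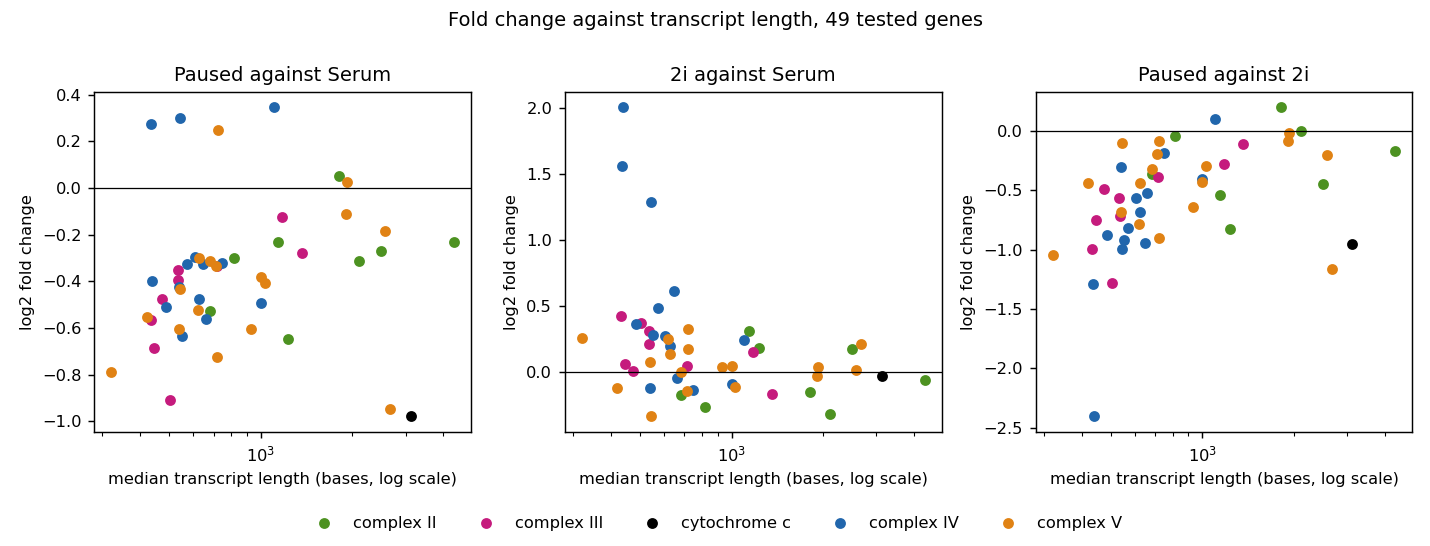
Log2 fold change (y axis) of each of the 49 tested members against its median transcript length in bases (x axis, log scale), coloured by complex, for each comparison. Most points lie under 1142 bases. In Paused against 2i the values fall lower at short lengths (Spearman 0.53), and in 2i against Serum they rise there (-0.42). Over the 12382 genes with a length the correlations in these comparisons were 0.09 and 0.06, the latter opposite in sign to that of the members.

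The authors' rescaled columns gave another account of the same contrast. There the median of members was -1.31 in Paused against Serum, and that of all tested genes -0.88, so most genes were lower. On that scale 47 of the 49 members fell and 0 rose, against 76.9% of all tested genes that fell and 0.378% that rose.

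Between 2i and Serum fewer members were called. Of the 49 tested, 12 were higher and 1 lower in 2i than in Serum, against 21.7% and 18.9% of all tested genes. The share that rose, 24.5%, was near that of all genes, and the share that fell was 2.04%. Of complex IV, 7 of 14 rose, of complex III 3 of 9, of complex II 1 of 8, and of complex V 1 rose and 1 fell of 17. The median over members was 0.08, against 0.02 over all genes, and over the 14 tested complex IV genes 0.28. Centring on the median gene changed the split to 5 higher and 4 lower, against 17.2% and 25.7% of all genes. In the authors' columns it was 2 higher and 11 lower, against 9.76% and 35.7%. The states shared no overlap for 15 members that were higher and 4 that were lower, against 25.6% and 22.4% of all genes. In all 3 lines alike, 19 were higher and 5 lower, against 34.2% and 30.0%.

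Cox7a1, the heart and muscle isoform of subunit VIIa, had the largest rise, with 78.5, 84 and 117 FPKM in 2i and 26.7, 13.4 and 29.9 FPKM in Serum (2.01 ± 0.26, adjusted p = 0.00269). Each line was higher in 2i, and no library of Serum reached those of 2i. Cox6b2, the testis isoform of subunit VIb, had 66.5, 147 and 155 FPKM in 2i and 41, 32 and 42.2 FPKM in Serum (1.57 ± 0.31, adjusted p = 0.0102). The E14 library was the lowest of the 2i libraries and still above the Serum libraries.

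Among the broad subunits Cox5a had 378, 428 and 363 FPKM in 2i and 293, 213 and 258 FPKM in Serum (0.62 ± 0.14, adjusted p = 0.0162). Cox6a1 rose by 0.49 ± 0.09, Uqcr10 by 0.42 ± 0.12, Uqcrq by 0.37 ± 0.09, Cox6b1 by 0.37 ± 0.10, Uqcrb by 0.32 ± 0.07 and Sdhb by 0.31 ± 0.09. Cox8a (0.28), Cox6c (0.27) and Atp5o (0.26) rose too. Atp5l fell, with 160.1, 144 and 154 FPKM in 2i and 182, 196 and 199 FPKM in Serum (-0.33 ± 0.08, adjusted p = 0.0161). On the authors' scale, where all genes had a median of -0.33, the signs of Sdhb (-0.057), Cox6b1 (-0.00297) and Cox8a (-0.085) turned. The calls of Cox7a1, Cox6b2 and Cox6a1 held without any 1 library, and the count of called members was between 4 and 14 (14 without 2i E14, 6 without 2i v6.5 or 2i Oct4 GiP, 6 without Serum E14, and 4 without Serum v6.5 or Serum Oct4 GiP).

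Respiratory genes were also lower in Paused than in 2i cells. This contrast shares its Paused libraries with the first and its 2i libraries with the second, so its values are given on their own. Of the 49 members 31 fell and 0 rose, against 24.6% and 19.8% of all tested genes (limma), and 35 were lower and 1 higher at an unadjusted p under 0.05, against 29.3% and 24.1%. Of complex III 7 of 9 fell, of complex IV 10 of 14, of complex V 10 of 17, of complex II 3 of 8, and Cycs. The median was -0.49 over members and -0.03 over all genes. It was -0.75 for complex IV, -0.57 for complex III, -0.43 for complex V and -0.27 for complex II. Groups did not overlap for 36 members that were lower and 1 that was higher, against 28.3% and 23.6% of all genes. In all 3 lines alike, 39 were lower and 1 higher, against 36.7% and 31.8%. The count held between 21 and 32 without any 1 library or line, while 2073 to 5611 genes were called in the whole table.

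Cox7a1 had 21.2, 14.7 and 14.5 FPKM in Paused and 78.5, 84 and 117 FPKM in 2i (-2.40 ± 0.26, adjusted p = 0.00133), with no overlap. Uqcrq had 210.2, 171 and 197 FPKM in Paused and 544, 391 and 482 FPKM in 2i (-1.28 ± 0.09). Cox6b2 (-1.29 ± 0.31), Atp5g1 (-1.16 ± 0.07), Atp5k (-1.05 ± 0.15) and Uqcr10 (-0.99 ± 0.12) fell as well. The Cox6b2 call was lost without the Paused library of v6.5 (adjusted p = 0.0705) or Oct4 GiP (0.0614), or the 2i library of Oct4 GiP (0.0696), all by limma. Sdha, with 125, 131 and 142 FPKM in Paused and 119, 115 and 111 FPKM in 2i, was the gene above 0 with no overlap, and was not called (0.20 ± 0.08, adjusted p = 0.0872). After the length and GC regression it was (0.31, adjusted p = 0.025).

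Of the 7 tissue isoforms, Cox7a1 and Cox6b2 were abundant and the other 5 were scarce. Cox7b2, a testis isoform of subunit VIIb, had 0.582, 0.96 and 1.06 FPKM in Paused, 3.46, 0.392 and 7.07 in 2i and 0.502, 0.535 and 0.483 in Serum. E14 and Oct4 GiP were high in 2i and v6.5 was not, and no pair of states passed the test (2i against Serum 1.29 ± 0.50, adjusted p = 0.0822). Cox6a2, the heart and muscle isoform of VIa, had 5.6 FPKM in 2i E14 and at most 0.38 in the other 8 libraries. Cox4i2, the lung isoform of subunit IV, ran from 0.111 to 0.314 FPKM in Paused, 0.176 to 0.395 in 2i and 0.406 to 0.85 in Serum. Cox8b, a heart, muscle and brown fat isoform, was listed at 0 in all but 2 libraries (0.31 in 2i Oct4 GiP and 0.325 in Serum v6.5), and Cox8c, a testis isoform, at 0 to 0.729 FPKM.

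**Figure D4:**
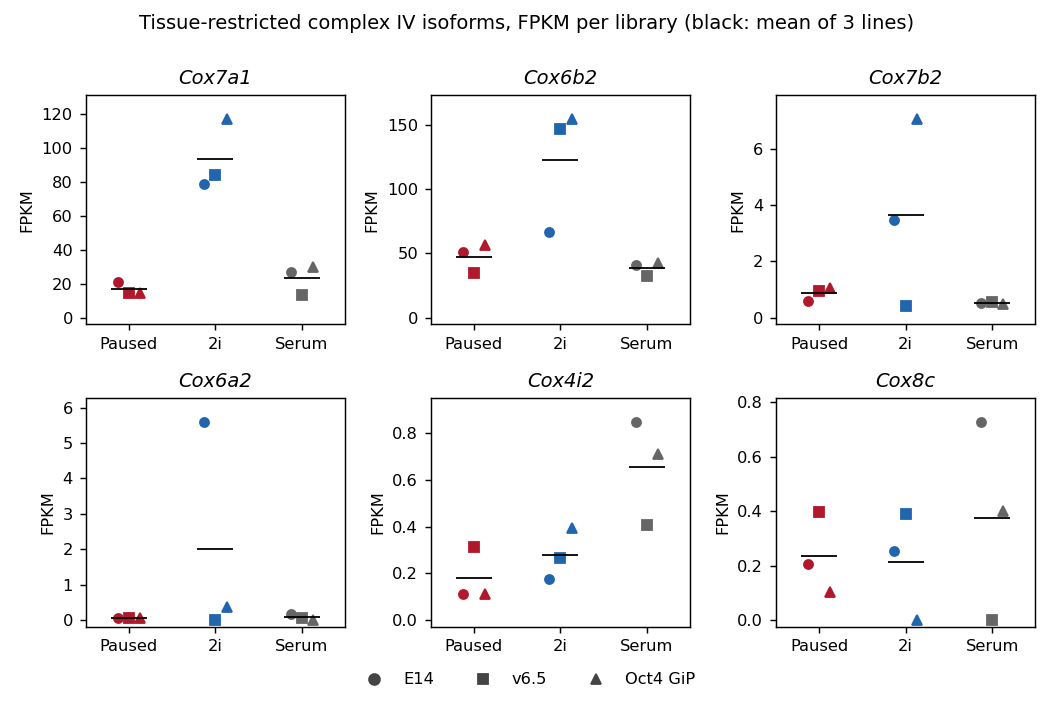
FPKM (y axis, own scale per panel) of 6 tissue isoforms of complex IV in each library by state (x axis, Paused, 2i, Serum), with the line as the symbol and the mean of 3 lines in black. Cox7a1 and Cox6b2 reach 117 and 155 FPKM in 2i, while Cox4i2 and Cox8c stay below 1 FPKM throughout.

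Markers of the tissues that use these isoforms did not move as 1 group. Of 13 germ cell markers, Dazl rose in 2i against Serum by 3.22 ± 0.31, Stra8 by 4.73 ± 0.87 and Ldhc by 0.62 ± 0.20, and Ddx4 fell by 1.03. The spermatid genes Prm1, Prm2, Tnp1, Acrv1 and Pgk2 were at most 0.252 FPKM. The summed germ cell list ran from 54.9 to 90.2 FPKM in Paused, 92.4 to 349.7 in 2i and 44.3 to 50.7 in Serum. Stra8 alone gave 257, 29.5 and 43.3 FPKM of the 2i sums. Of 12 muscle and heart markers 9 had values and 4 were tested, and the heart genes Myh6, Myh7 and Tnni3 had none. Mylpf rose in 2i against Serum (1.47 ± 0.43) and Acta1 fell (-0.69 ± 0.15), while Ckm and Myog were at most 0.632 FPKM. The muscle list summed to 72.1 to 135 FPKM in Paused, 182 to 288 in 2i and 92.8 to 207 in Serum. Most of these sums was Mylpf and Acta1. Mylpf had 51.7, 99.9 and 38.6 FPKM in Paused, 247, 254 and 153 in 2i and 135, 45.9 and 71.3 in Serum. The brown fat list, which holds Cox8b, summed to 0.0768 to 0.484 FPKM in Paused, 2.38 to 5.72 in 2i and 0.649 to 0.937 in Serum. Nearly all of its 2i sum was 1 gene, Cidea (5.70, 2.36 and 4.26 FPKM), while the defining gene Ucp1 was at most 0.176 FPKM in any library. The part of these lists in the isoform changes was not tested. All 8 ES cell markers were expressed in every library, and their sum ran from 3299 to 4455 FPKM in Paused, 2492 to 3115 in 2i and 2465 to 3564 in Serum. In Paused against 2i 5 of the 8 rose (Pou5f1, Sox2, Sall4, Lin28a and Tdgf1) and Nanog fell. In 2i against Serum Nanog rose while Sall4 and Lin28a fell, and in Paused against Serum Tdgf1 rose.

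Shares of paralogs do not depend on how libraries are scaled. Shares of each paralog in the summed FPKM of its family were compared by a two-sided exact permutation test over 3 against 3 libraries, in 39 tests. The smallest p this design allows is 0.1, and the smallest adjusted p was 0.217, so no difference in share could pass the threshold. Of the c-subunit transcripts Atp5g2 was 50.6 ± 2.02% in Paused, 38.8 ± 2.26% in 2i and 42.0 ± 1.03% in Serum, and Atp5g1 was 18.5 ± 0.953%, 25.6 ± 1.99% and 23.9 ± 2.14%. In all 3 lines the Paused share of Atp5g2 was above, and that of Atp5g1 below, the Serum share, with no overlap (exact p = 0.1 each). Summed over the 3 genes, the c-subunit transcripts had 805 ± 39.9 FPKM in Paused, 1316 ± 193 in 2i and 1205 ± 35.6 in Serum.

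In the VIIa family, Cox7a1 was 8.87 ± 1.38% in Paused, 32.9 ± 5.20% in 2i and 12.0 ± 4.98% in Serum. Cox7a2 was 30.8 ± 5.69%, 29.4 ± 3.51% and 43.1 ± 5.99%, and Cox7a2l 60.4 ± 4.53%, 37.6 ± 2.83% and 44.97 ± 2.65%. The Cox7a2l share was higher in Paused in each line, by 15.4 percentage points against Serum and 22.7 against 2i. Cox6b2 was 16.4 ± 2.74% of the VIb transcripts in Paused, 21.3 ± 6.74% in 2i and 10.1 ± 1.53% in Serum. Both the Paused and the 2i libraries lay above those of Serum in Cox6b2 share, though in FPKM the Paused level was not called against Serum (0.27 ± 0.31).

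**Figure D5:**
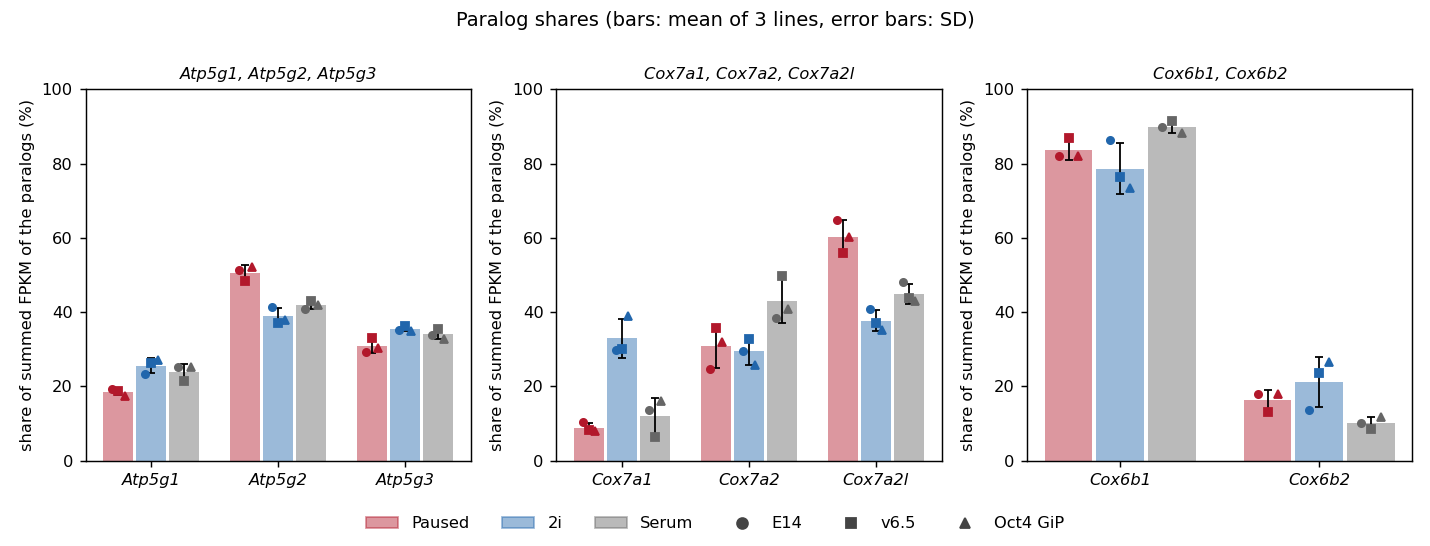
Share (%) of each paralog in the summed FPKM of its family (y axis), by state, for the c-subunit genes, the VIIa family and the VIb family, with bars for the mean of 3 lines, error bars for the SD and points for the libraries. The Atp5g2 and Cox7a2l shares are highest in Paused (50.6% and 60.4%) and the Cox7a1 share is highest in 2i (32.9%).

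No member was called between the 3 lines. By the F test over lines, with culture state as the block, 0 of 49 members were called, against 1.50% of all tested genes (limma). At an unadjusted p under 0.05 there were 4, Cox4i1, Cox7a2, Uqcrq and Atp5g1, against 19.0% of all genes. With a filter at 5 FPKM 1 member was called, and the share of all genes is not given for that fit. In the pairs of lines, 0 members were called by limma, against 1.53% of genes higher and 0.551% lower in v6.5 against E14, 0.205% and 0.346% in Oct4 GiP against v6.5, and 0.00787% and 0.00% in Oct4 GiP against E14. At an unadjusted p under 0.05 the pairs gave 5 members in v6.5 against E14 (18.5% of all genes), 5 in Oct4 GiP against v6.5 (15.4%) and 1 in Oct4 GiP against E14 (12.9%). Cox4i1, the main subunit IV isoform, came nearest. It had 912, 1009 and 1180.1 FPKM in Oct4 GiP (Paused, 2i and Serum), 708, 889.9 and 877 in v6.5 and 646, 684 and 791 in E14. Its level was highest in Oct4 GiP and lowest in E14 in each state, and Oct4 GiP against E14 gave 0.54 ± 0.08 (F test adjusted p = 0.0597).

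Genes that build or tune the same complexes were compared with the members by counts. Of 21 tested complex IV assembly genes 7 fell and 1 rose in Paused against Serum, against 10.5% and 7.64% of all tested genes. Cox17, the copper chaperone, had 131, 123 and 125 FPKM in Paused and 201, 179 and 175 FPKM in Serum (-0.54 ± 0.07), and Slirp, which stabilises mitochondrial mRNA, fell by 0.78. Its partner Lrpprc rose, with 72.4, 70.1 and 72.0 FPKM in Paused and 56.1, 55.5 and 53.2 FPKM in Serum (0.38 ± 0.08). Of 5 complex III assembly genes Uqcc1 and Uqcc2 fell, of 5 complex V genes Atpaf2 and Usmg5, and of 5 alternative subunits Ndufa4 (-0.38 ± 0.09) and Higd1a (-0.73 ± 0.12). Cyct, also among these 5, was not called, with the levels given above. Of 10 regulators of mitochondrial biogenesis, Gabpa and Tfam among them, 0 passed in Paused against Serum in limma. At an unadjusted p under 0.05 there were 0 too, against 19.5% of all tested genes lower and 16.7% higher. In 2i against Serum 2 of the regulators rose, Gabpa (0.33 ± 0.08) and Ppargc1b (0.71 ± 0.22), and in Paused against 2i Pprc1 rose (0.35 ± 0.11). In 2i against Serum the complex IV assembly genes gave 2 higher and 1 lower, against 21.7% and 18.9% of all tested genes. In Paused against 2i they gave 2 higher and 10 lower, against 19.8% and 24.6% of all tested genes.

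Complex I is the closest other module. Ndufa4 and Ndufa4l2 carry complex I names but stand among the alternative subunits above, so they are left out here. Of the other 36 tested genes 18 fell and 0 rose in Paused against Serum (limma), against 10.5% and 7.64% of all tested genes. Their median was -0.40. At an unadjusted p under 0.05, 25 were lower and 0 higher, against 19.5% and 16.7% of all tested genes. In Paused against 2i 28 fell and 0 rose, against 24.6% and 19.8% (29 lower and 1 higher unadjusted, against 29.3% and 24.1%). In 2i against Serum 9 rose and 1 fell, against 21.7% and 18.9%. The share that rose there, 25%, was near that of all genes. The difference between complex I and complexes II to V was not tested.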

How the data were processed

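RNA-seq of 9 mouse ES cell libraries was analysed from a deposited table of FPKM, made by the authors with Cuffnorm on mm10, per the submitters' processing notes. No source used here names an aligner or strand setting. The authors' second set of columns, a deposited normalized signal, equals FPKM times 1 constant per library and served as an alternative. Of 29801 rows, 5644 without a gene name and 113 repeats were left out. Total reads are not given. Low values put relative depth between 0.995 and 1.23.

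Genes with at least 1 FPKM in 3 libraries (12711) were fitted with limma 3.58.1 in R 4.3.3 on log2(FPKM + 1), which understates changes of low genes, with cell line as a block. The labels give 1 library per line and state. Deviations from state means correlated between -0.0008 and 0.40 within a line and between -0.24 and 0.09 across lines. The fit was tested on simulated data. Paralog shares used exact permutation tests in SciPy. Named members were the 6 largest changes per comparison and direction among those called with 1 sign in all lines, plus a fixed list. Alternatives covered the block, pseudocount, filter, scaling, length and GC content, and omitted libraries or lines. Members and lists were chosen with earlier results of these data known.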

Additional observations from a re-analysis of the deposited data

How the results depend on the processing

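Counts of members called in Paused against Serum (27) were 47 in the authors' columns and 16 after the length and GC regression, and 0 to 35 with a library or line left out. In 2i against Serum (13) such omissions gave 1 to 14 and in Paused against 2i (31) 21 to 32. Over the 3 states (33) they gave 10 to 41, the lowest without the Oct4 GiP line. The genes called in the whole table moved too. They were 4 to 3223 in Paused against Serum and 1269 to 5436 in 2i against Serum. In Paused against 2i they were 2073 to 5611, and over the 3 states 1243 to 7131. Over the lines 0 became 1 with the filter at 5 FPKM. Without the replicate block, the 27, 13 and 31 became 24, 9 and 32. Genes called in the whole table are not given here for that fit or for the 5 FPKM filter. Their member counts thus have no background beside them. Other pseudocounts, filters and centring kept each total over the states within 1.5 times, though centring moved the 12 higher and 1 lower of 2i against Serum to 5 and 4. The cause of these shifts was not tested, and omission also removes libraries from the fit.

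In the authors' columns 7 named values turned their sign. In Paused against Serum they were Cox6b2 (-0.65), Sdha (-0.88) and Cox7a2l (-0.58), in Paused against 2i Cox7a2l (-0.46), and in 2i against Serum Sdhb (-0.057), Cox6b1 (-0.00297) and Cox8a (-0.085). No paralog share moved by more than its SD over lines when a line was left out. With so few lines a share cannot move further than that, so the stability of the shares was not tested. Without read totals no interval for single low values can be given.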
